A study of Mus musculus with 32 samples.

Results

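The semaphorins, plexins and neuropilins were taken as every gene in the count files whose symbol names a class 3 to class 7 semaphorin, a plexin or a neuropilin. The rule found 31 genes among 26331 named genes, of which 20 were semaphorins, 9 plexins and 2 neuropilins. Semaphorins are guidance cues for growing axons and migrating neurons. Class 3 semaphorins are secreted and mostly act through a neuropilin that binds the ligand and a class A plexin that carries the signal into the cell, whereas Sema3e can bind Plxnd1 without a neuropilin. Semaphorins of classes 4 to 6 span the membrane, Sema7a is held by a lipid anchor, and most of these bind a plexin directly, as Sema4d binds Plxnb1, Sema6 proteins bind Plxna2 and Plxna4, and Sema7a binds Plxnc1. In the developing cortex the family is known for steering callosal and corticofugal axons, for the migration of interneurons and for the growth of blood vessels.

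RNA was sequenced from mouse embryos in 32 libraries that form 8 groups. Labelled Kat6b knockout (Kat6b-/-) and wild-type embryos on a C57BL/6 background gave 5 cortex libraries per genotype at embryonic day E15.5 and 3 dorsal telencephalon libraries per genotype at E12.5. Embryos with a Kat6b transgene, Tg(Kat6b), and wild-type controls on a mixed FVBxBALB/c background gave 4 cortex libraries per genotype at E15.5 and 4 dorsal telencephalon libraries per genotype at E12.5. Kat6b encodes a histone acetyltransferase. The knockout allele, the transgene's promoter and the number of transgenic lines were not found in the labels. Age and dissection changed together, so E15.5 against E12.5 is also cortex against dorsal telencephalon, and these cannot be told apart. Background and sequencing batch also changed together, since all C57BL/6 libraries were batch 2 and all FVBxBALB/c libraries batch 1.

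Total counts ran from 10424813 to 49699656 per library, and no library was identical to another. Kat6b itself had 584 to 773 CPM (counts scaled to the library size) in Tg(Kat6b) and 149.9 to 224 CPM in wild type at E15.5, and 461 to 580.1 CPM in Tg(Kat6b) and 156 to 193 CPM in wild type at E12.5. It was 3.62-fold (95% interval 2.99 to 4.38) of wild type in Tg(Kat6b) at E15.5 and 3.09-fold (2.56 to 3.73) at E12.5. Labelled knockout libraries had 157 to 193 CPM and wild type 153 to 194 CPM at E15.5, and labelled knockout 119.9 to 189 CPM and wild type 153 to 194 CPM at E12.5. In the labelled knockout Kat6b was 1.03-fold (0.877 to 1.20) of wild type at E15.5 and 0.896-fold (0.731 to 1.10) at E12.5, so the gene's count does not check that label. The sources used here do not say which exons the allele lacks. Both C57BL/6 E15.5 replicates 5 carry a column name for E12 replicate 2, and the knockout one is labelled dorsal telencephalon. Principal components were taken within each background. Both replicates 5 lay at 49.3 (labelled knockout) and 48.8 (wild type) on the first component, among the E15.5 libraries, while the C57BL/6 E12.5 libraries lay at -99.4 to -51.3. Labelled knockout E15.5 replicates 3 and 4 stood apart on the second component, at -44.1 and -35.2. In replicate 3 the ribosomal RNA rows Rn45s and Rn18s and Lars2 held 21.1% of counts, against at most 0.914% in any other library. Wild-type FVBxBALB/c E12.5 replicate 4 stood apart too, at -50.3 on the second component of its own background. Its microglia and blood markers summed to 1136 CPM, against 251 to 359 CPM in the other 3. Values without these libraries are given where they alter a result. Wild-type C57BL/6 E12.5 replicate 1 lay at -99.4 on the first component, against -56.5 and -63.6 in wild-type replicates 3 and 4. Its meningeal markers summed to 2373 CPM (874 and 1098 CPM in those replicates), and its ventral telencephalon and interneuron markers to 408 CPM (1173 and 914 CPM). Marker lists were not refitted without it.

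All 31 members were counted at both ages, at levels that spanned more than 3 orders of magnitude per kilobase. Levels between genes are compared as RPKM, the CPM divided by the gene length in the files. In wild-type C57BL/6 cortex at E15.5, Plxna2 had 63.8 ± 7.11 RPKM and Plxnb2 had 55.0 ± 4.46 RPKM (SD, n = 5), and the ranges of the 5 libraries overlapped between them. Sema6c followed at 42.7 ± 3.59 RPKM, with no library as high as the lowest Plxnb2 value. At the low end Sema3g had 1.14 ± 0.174 RPKM, Sema3e 1.10 ± 0.167 RPKM, Sema3b 0.427 ± 0.141 RPKM and Sema3d 0.396 ± 0.155 RPKM, and Sema3g and Sema3e overlapped, as did Sema3b and Sema3d. Plxnb3 was lowest at 0.0485 ± 0.0156 RPKM. It had 0 to 16 counts per library over all 32 libraries, and the 1 library at 0, Tg(Kat6b) E15.5 replicate 1, allows up to 0.238 CPM, the equivalent of 3 counts.

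The order differed at E12.5. Plxnb2 led wild-type C57BL/6 dorsal telencephalon at 56.6 ± 3.93 RPKM (SD, n = 3), apart from all other members, followed by Plxna1 at 32.4 ± 2.49 RPKM, Plxnb1 at 30.9 ± 4.57 RPKM and Sema6c at 30.0 ± 10.1 RPKM, whose ranges overlapped. Plxna2 stood at 24.9 ± 3.53 RPKM at this age. The FVBxBALB/c wild type had the same leading plexins, with Plxna2 at 59.1 ± 10.6 RPKM and Plxnb2 at 43.9 ± 0.526 RPKM at E15.5, against 26.3 ± 6.26 RPKM and 51.8 ± 4.21 RPKM at E12.5 (n = 4 at each age). In all 8 groups Plxnb3 was lowest, and Sema3b, Sema3d, Sema3e and Sema3g were among the 6 lowest.

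As a ratio of class sums, the neuropilins differed most between the ages. Both neuropilins together had 53.3 ± 2.75 RPKM at E15.5 and 26.0 ± 1.44 RPKM at E12.5 in C57BL/6 wild type (SD, n = 5 and 3), and 55.7 ± 2.89 RPKM at E15.5 and 31.1 ± 3.45 RPKM at E12.5 in FVBxBALB/c wild type (n = 4 each). The class A plexins summed to 159 ± 15.1 RPKM at E15.5 and 84.9 ± 13.2 RPKM at E12.5 in C57BL/6, and their ligands of class 3 to 38.6 ± 3.06 and 22.3 ± 0.708 RPKM. Class B plexins went the other way, with 81.0 ± 6.48 RPKM at E15.5 and 87.6 ± 1.19 RPKM at E12.5 in C57BL/6, and 63.3 ± 2.42 RPKM at E15.5 and 82.3 ± 7.92 RPKM at E12.5 in FVBxBALB/c. The E15.5 and E12.5 class B sums did not overlap in FVBxBALB/c. In C57BL/6 they ran from 70.3 to 86.7 RPKM at E15.5 and from 86.6 to 88.9 RPKM at E12.5 and just overlapped. The membrane-bound semaphorins summed to 227 ± 11.7 RPKM at E15.5 and 156 ± 26.2 RPKM at E12.5 in C57BL/6. These sums are descriptions and were not tested. In tissue of mixed cells, fewer cells of a type and less RNA per cell cannot be told apart.

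Between wild-type E15.5 cortex and E12.5 dorsal telencephalon, 23 of 31 members changed in C57BL/6, 19 of them higher at E15.5 and 4 lower. The change was called at an adjusted p below 0.05 in edgeR's quasi-likelihood test, and 56.8% of all 16118 genes tested passed it (28.6% higher and 28.2% lower). The members' median log2 fold change was 0.60, against -0.02 over all genes. In FVBxBALB/c, 17 of 30 tested members changed, 13 higher and 4 lower, beside 50.1% of all 15556 genes (25.1% higher and 25.1% lower), with a median log2 fold change of 0.23 against -0.03. Plxnb3 had too few counts to be tested there. The called share was 74.2% of members in C57BL/6 and 56.7% in FVBxBALB/c, the second of these close to its background. The libraries of the ages did not overlap for 19 members in C57BL/6 (51.5% of all genes) and for 15 in FVBxBALB/c (43.0%).

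**Figure D1:**
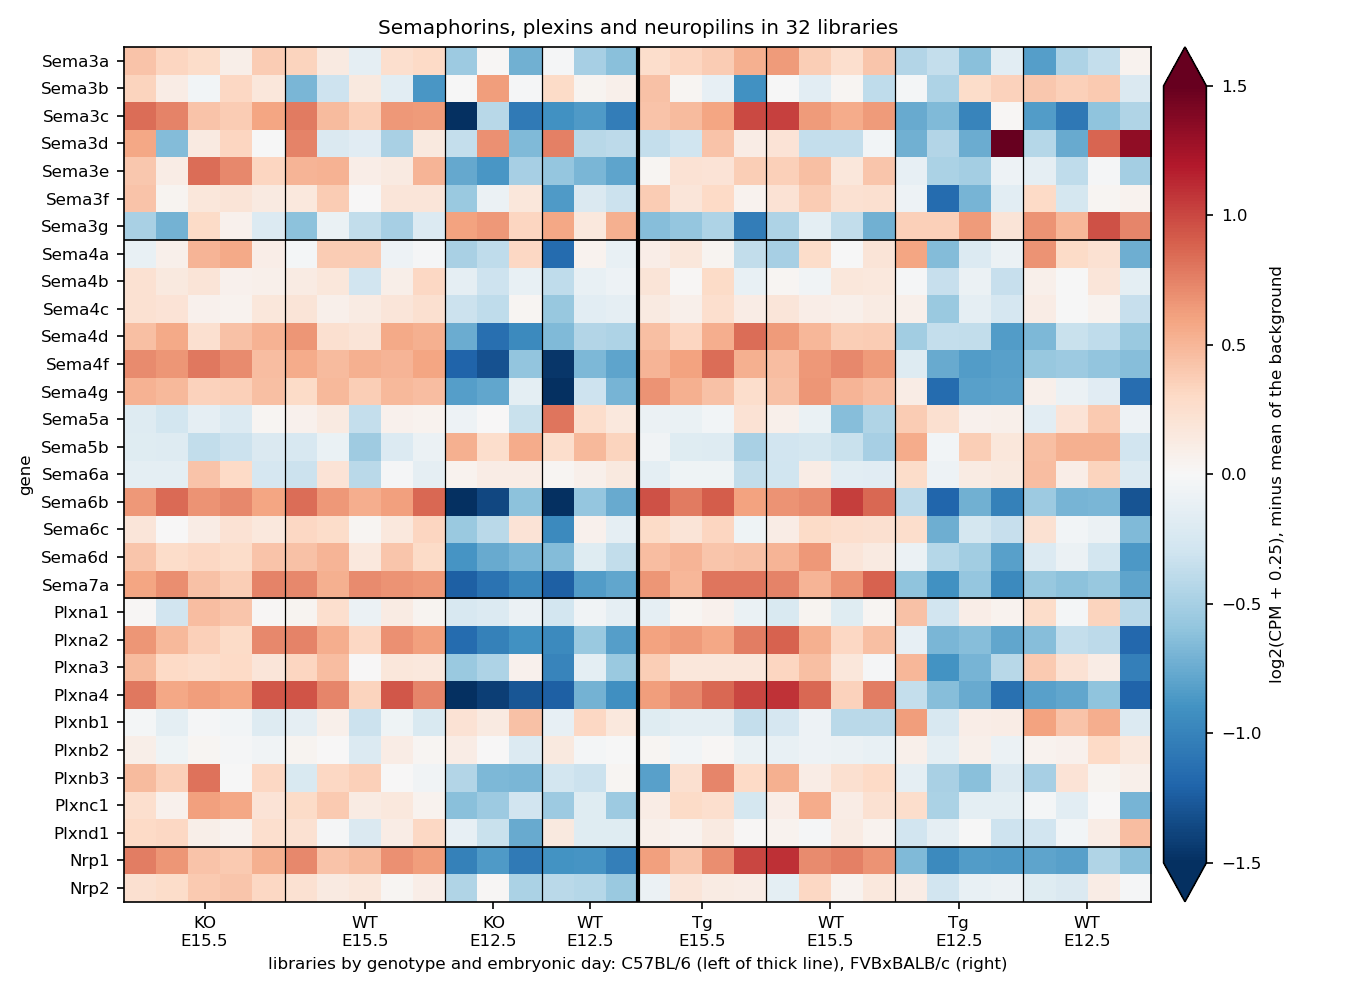
Each row is a member and each column a library, coloured by log2(CPM + 0.25) minus the mean of its background, with the E15.5 groups left of the E12.5 groups in C57BL/6 (left of the thick line) and FVBxBALB/c (right). For the 13 members called higher at E15.5 in both wild types the E15.5 columns are mostly red and the E12.5 columns mostly blue, and Sema3g and Sema5b show the reverse.

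**Figure D2:**
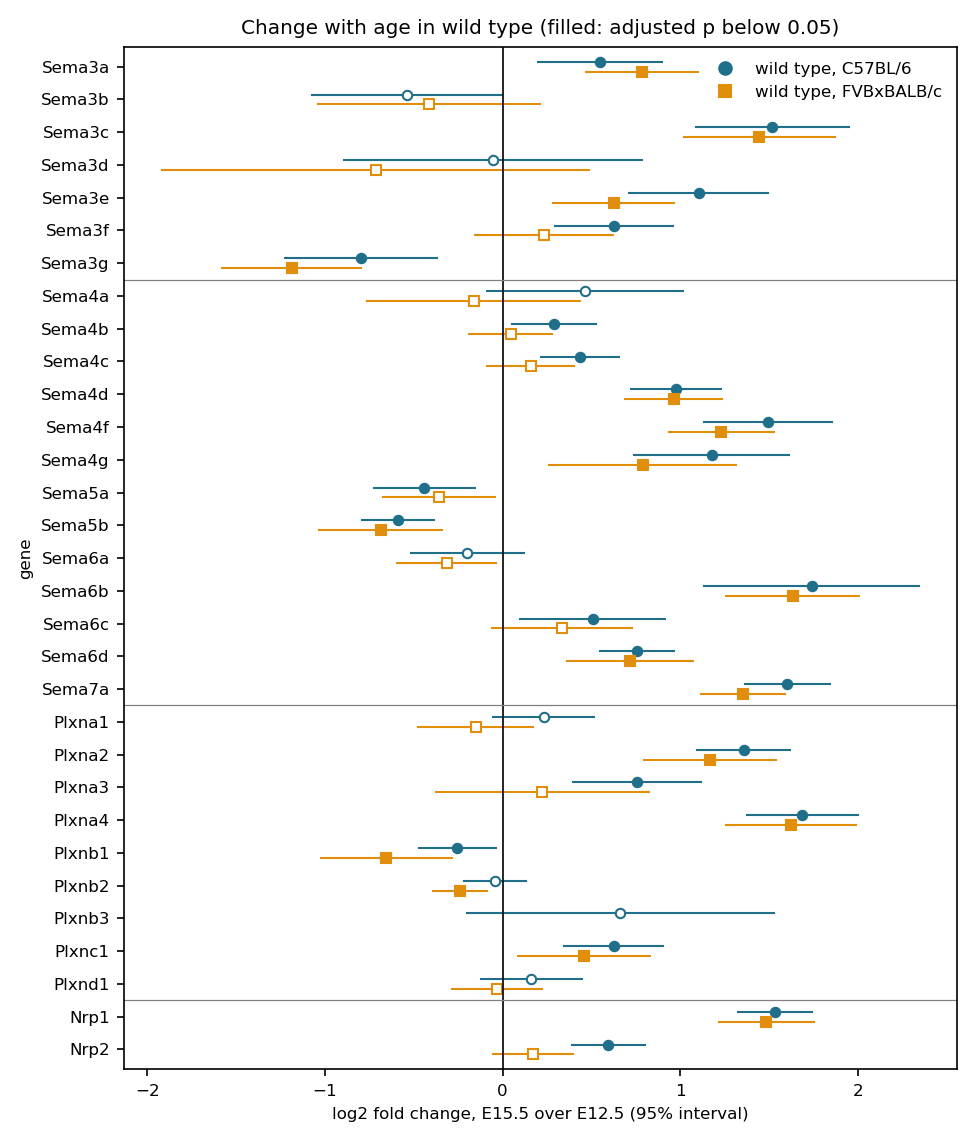
log2 fold change of E15.5 over E12.5 in wild type for each member, with 95% intervals, in C57BL/6 and FVBxBALB/c, where filled points passed an adjusted p of 0.05. Sema6b and Plxna4 lie highest (1.74 and 1.69 in C57BL/6) and Sema3g lowest (-0.80 in C57BL/6 and -1.19 in FVBxBALB/c).

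Of the secreted class 3 ligands, Sema3a, Sema3c and Sema3e rose in both backgrounds and Sema3g fell in both. Sema3c, which attracts cortical axons at the midline, had 84.7, 68.6, 63.0, 77.2 and 77.1 CPM in the 5 C57BL/6 wild-type libraries at E15.5, against 26.2, 27.3 and 23.9 CPM in the 3 at E12.5. FVBxBALB/c wild type gave 113, 86.4, 81.6 and 86.2 CPM at E15.5 and 31.0, 26.2, 36.5 and 40.6 CPM at E12.5. Every E15.5 value lay above every E12.5 value, a rise of 2.87-fold, 95% interval 2.13 to 3.86, in C57BL/6 (log2 fold change 1.52, SE 0.20, adjusted p = 1.27e-05) and of 2.73-fold, 95% interval 2.03 to 3.66, in FVBxBALB/c (log2 fold change 1.45, SE 0.20, adjusted p = 1.92e-05). Sema3a, the prototype repellent that signals through Nrp1, rose less, by a log2 fold change of 0.55 in C57BL/6 (adjusted p = 0.00961) and 0.79 in FVBxBALB/c (adjusted p = 0.000343). Without wild-type E12.5 replicate 4 the C57BL/6 value was 0.43 at an adjusted p of 0.0558. Sema3e, the Plxnd1 ligand, rose by 1.10 in C57BL/6 and 0.63 in FVBxBALB/c on the log2 scale.

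Sema3g, a ligand known from arterial endothelium, fell where Sema3a, Sema3c and Sema3e rose. Its libraries held 3.45, 5.02, 4.14, 3.76 and 4.65 CPM at E15.5 against 8.20, 6.08 and 7.90 CPM at E12.5 in C57BL/6 wild type, and 2.73, 3.45, 2.93 and 2.24 CPM at E15.5 against 6.26, 5.55, 7.72 and 6.56 CPM at E12.5 in FVBxBALB/c wild type. The ages did not overlap in either background, in C57BL/6 (log2 fold change -0.80, SE 0.20, adjusted p = 0.00294) or in FVBxBALB/c (log2 fold change -1.19, SE 0.18, adjusted p = 5.47e-05). Endothelial and pericyte markers differed between the ages too. Of 16 such genes 8 were called lower and 4 higher at E15.5 in C57BL/6, and 10 lower and 3 higher in FVBxBALB/c. Their summed level was 305 to 358 CPM at E15.5 and 349.7 to 569 CPM at E12.5 in C57BL/6, and 234 to 269 CPM at E15.5 and 343 to 483 CPM at E12.5 in FVBxBALB/c, with none of the 16 at 0 in any library of these groups. Their part in the Sema3g values was not tested. Sema3f, the Nrp2 ligand, rose in C57BL/6 (0.63, adjusted p = 0.00268), and in FVBxBALB/c its log2 fold change was 0.23 (adjusted p = 0.311). Sema3b and Sema3d, with 9 to 111 and 22 to 341 counts per library, passed in neither background.

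Among membrane-bound semaphorins, Sema6b had the largest rise of all members in C57BL/6 with all libraries. Without wild-type E12.5 replicate 1 its log2 fold change was 1.38, below Plxna4 (1.56) and Sema7a (1.48), so this rank rests on that library. It was at 70.8, 62.3, 58.1, 60.7 and 72.4 CPM in C57BL/6 wild type at E15.5, against 8.54, 26.3 and 23.3 CPM at E12.5, and at 37.0, 37.9, 47.8 and 42.3 CPM at E15.5 against 15.8, 14.2, 14.2 and 9.27 CPM at E12.5 in FVBxBALB/c. The lowest E15.5 library stood well above the highest E12.5 library in both backgrounds, and the rise was 3.34-fold, 95% interval 2.20 to 5.08, in C57BL/6 (adjusted p = 9.99e-05) and 3.10-fold, 95% interval 2.39 to 4.02, in FVBxBALB/c (adjusted p = 1.37e-06). Sema7a, the lipid-anchored ligand of Plxnc1 and of beta1 integrins, had 79.5, 69.7, 78.8, 76.7 and 75.4 CPM at E15.5 and 20.3, 26.8 and 27.9 CPM at E12.5 in C57BL/6 wild type. The FVBxBALB/c libraries had 52.2, 44.2, 49.7 and 57.6 CPM at E15.5 and 20.8, 20.2, 20.8 and 17.8 CPM at E12.5. The ages were apart in both backgrounds, with log2 fold changes of 1.60 (SE 0.11, adjusted p = 1.56e-08) and 1.35 (SE 0.11, adjusted p = 7.93e-08). Sema4f had 30.7, 29.0, 30.2, 29.8 and 31.6 CPM at E15.5 against 7.42, 12.9 and 11.9 CPM at E12.5 in C57BL/6, and 18.2, 20.8, 21.8 and 20.8 CPM at E15.5 against 8.80, 9.00, 8.65 and 8.39 CPM at E12.5 in FVBxBALB/c. Per kilobase it had the lowest mean of the membrane-bound semaphorins at E15.5 in C57BL/6 (6.03 ± 0.190 RPKM), with a range inside that of Sema4a (6.70 ± 1.12 RPKM), and it rose in both backgrounds (1.49 and 1.23 on the log2 scale).

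Sema4d, Sema4g and Sema6d also rose in both backgrounds, by 0.98, 1.18 and 0.76 in C57BL/6 and 0.96, 0.79 and 0.72 in FVBxBALB/c on the log2 scale. Sema5b, a membrane-bound ligand with thrombospondin repeats, fell in both. It had 75.4, 83.3, 61.7, 77.5 and 83.8 CPM at E15.5 and 107, 125 and 112 CPM at E12.5 in C57BL/6 wild type, and 61.8, 63.0, 59.9 and 53.4 CPM at E15.5 and 103, 109, 109.6 and 62.0 CPM at E12.5 in FVBxBALB/c wild type. The ages did not overlap in C57BL/6 (log2 fold change -0.59, SE 0.10, adjusted p = 5.99e-05) and overlapped in FVBxBALB/c (log2 fold change -0.69, SE 0.16, adjusted p = 0.0023). Its relative Sema5a fell in C57BL/6 (-0.44, adjusted p = 0.01) and was at -0.36 in FVBxBALB/c (adjusted p = 0.0556). The C57BL/6 call ended without wild-type E12.5 replicate 1, at -0.22 and an adjusted p of 0.136.

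Sema4b (0.29), Sema4c (0.44) and Sema6c (0.51) were higher at E15.5 in C57BL/6 and did not pass in FVBxBALB/c. Without wild-type E12.5 replicate 1 the log2 fold change was 0.20 for Sema4b and 0.26 for Sema6c. The Sema4b call in C57BL/6 wild type ended without wild-type E12.5 replicate 1 (0.20, adjusted p = 0.174), wild-type E15.5 replicate 1 (0.28, adjusted p = 0.0586), wild-type E15.5 replicate 2 (0.27, adjusted p = 0.07), wild-type E15.5 replicate 4 (0.29, adjusted p = 0.0502) or wild-type E15.5 replicate 5 (0.23, adjusted p = 0.098). The Sema6c call in C57BL/6 wild type ended without wild-type E12.5 replicate 1 (0.26, adjusted p = 0.169), wild-type E15.5 replicate 1 (0.49, adjusted p = 0.0586), wild-type E15.5 replicate 2 (0.49, adjusted p = 0.0552) or wild-type E15.5 replicate 5 (0.48, adjusted p = 0.0613). Sema4a and Sema6a were called in no group of either background.

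**Figure D3:**
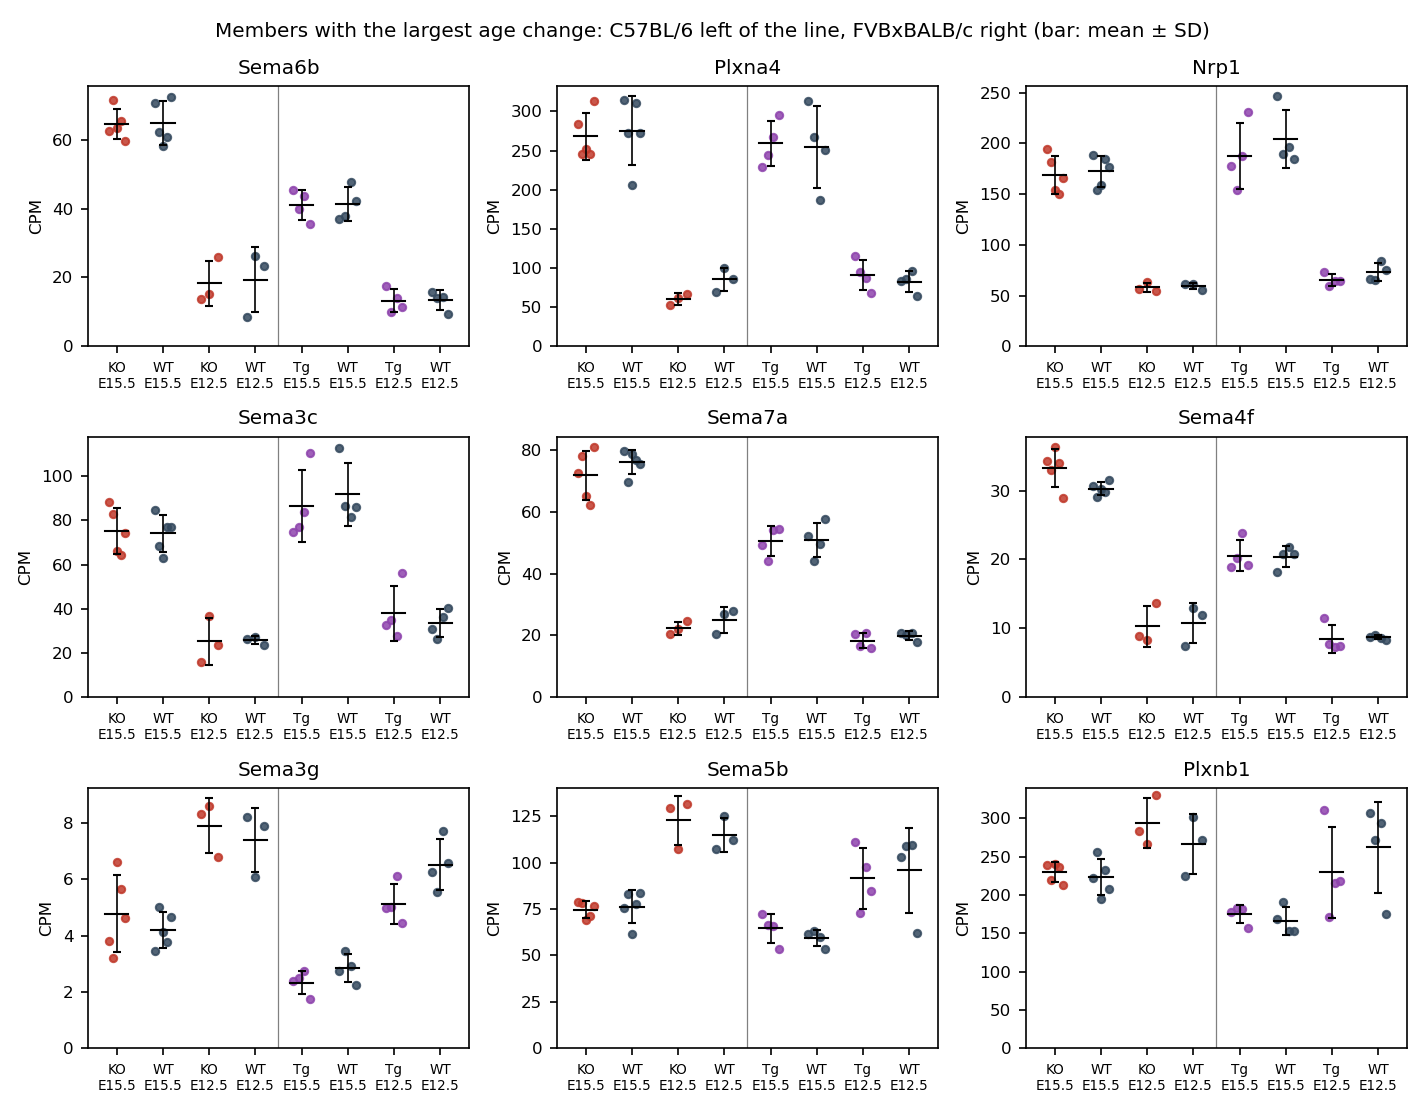
CPM of the 9 members named by rule for their change with age (Sema6b, Plxna4, Nrp1, Sema3c, Sema7a, Sema4f, Sema3g, Sema5b and Plxnb1), 1 point per library, in the E15.5 and E12.5 groups of each genotype and background. Nrp1 lies between 150.1 and 247 CPM in the E15.5 libraries and between 54.7 and 84.5 CPM in the E12.5 libraries.

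Among the receptors, Plxna2 and Plxna4 rose and Plxnb1 fell in both backgrounds. Plxna4, which pairs with Nrp1 for Sema3a and also binds Sema6 ligands, had 315, 272, 206, 311 and 272 CPM at E15.5 and 70.0, 99.9 and 86.5 CPM at E12.5 in C57BL/6 wild type. FVBxBALB/c wild type held 314, 267, 187 and 251 CPM at E15.5 and 83.5, 86.2, 96.8 and 64.0 CPM at E12.5. No library crossed between the ages, and Plxna4 rose 3.22-fold, 95% interval 2.59 to 4.00, in C57BL/6 (adjusted p = 1.30e-07) and 3.08-fold, 95% interval 2.39 to 3.97, in FVBxBALB/c (adjusted p = 1.24e-06). Plxna2, the most abundant member at E15.5, ran from 583 to 787 CPM at E15.5 against 242 to 318 CPM at E12.5 in C57BL/6 (log2 fold change 1.36, adjusted p = 1.78e-07), and rose by 1.17 in FVBxBALB/c (adjusted p = 4.15e-05). Plxna1 was at 0.23 in C57BL/6 and -0.15 in FVBxBALB/c and passed in neither. Plxna3 rose in C57BL/6 (0.76, adjusted p = 0.00132) and was at 0.22 in FVBxBALB/c (adjusted p = 0.533).

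Plxnb1, the receptor for Sema4d, had 223, 256, 195, 233 and 208 CPM at E15.5 and 224, 302 and 272 CPM at E12.5 in C57BL/6 wild type, and 169, 191, 153 and 153 CPM at E15.5 and 307, 271, 294 and 175 CPM at E12.5 in FVBxBALB/c wild type. The ages overlapped in both backgrounds, in C57BL/6 (log2 fold change -0.26, SE 0.10, adjusted p = 0.0418) and in FVBxBALB/c (log2 fold change -0.65, SE 0.17, adjusted p = 0.00488). The Plxnb1 call in C57BL/6 wild type ended without wild-type E12.5 replicate 3 (-0.14, adjusted p = 0.325), wild-type E12.5 replicate 4 (-0.24, adjusted p = 0.103), wild-type E15.5 replicate 1 (-0.25, adjusted p = 0.0635), wild-type E15.5 replicate 3 (-0.20, adjusted p = 0.107), wild-type E15.5 replicate 4 (-0.27, adjusted p = 0.0555) or wild-type E15.5 replicate 5 (-0.23, adjusted p = 0.0868). Plxnb2 fell in FVBxBALB/c (-0.24, adjusted p = 0.0117) and was at -0.04 in C57BL/6 (adjusted p = 0.689). Plxnc1, the Sema7a receptor, rose by 0.63 in C57BL/6 and 0.46 in FVBxBALB/c on the log2 scale. The Plxnc1 call in FVBxBALB/c wild type ended without wild-type E12.5 replicate 2 (0.47, adjusted p = 0.0622), wild-type E12.5 replicate 4 (0.32, adjusted p = 0.107), wild-type E15.5 replicate 2 (0.34, adjusted p = 0.135) or wild-type E15.5 replicate 4 (0.47, adjusted p = 0.0601).

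Nrp1, which binds Sema3a and also vascular endothelial growth factor, had 189, 154, 159, 184 and 176 CPM at E15.5 and 61.2, 61.7 and 55.8 CPM at E12.5 in C57BL/6 wild type. In the FVBxBALB/c controls it was at 247, 189.5, 196 and 185 CPM at E15.5 and 66.6, 65.7, 84.5 and 74.8 CPM at E12.5. The ages were separated in both backgrounds, and Nrp1 rose 2.89-fold, 95% interval 2.51 to 3.34, in C57BL/6 (log2 fold change 1.53, SE 0.10, adjusted p = 6.35e-09) and 2.80-fold, 95% interval 2.33 to 3.37, in FVBxBALB/c (log2 fold change 1.48, SE 0.13, adjusted p = 1.10e-07). Nrp2, the receptor for Sema3f, rose in C57BL/6 (0.60, adjusted p = 6.38e-05) and was at 0.17 in FVBxBALB/c (adjusted p = 0.191).

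Across both wild types, 13 members were called higher at E15.5 (22.4% of the 15448 genes tested in both backgrounds) and 3 lower (20.9%), and none was called in opposite directions. The 13 were Sema3a, Sema3c, Sema3e, Sema4d, Sema4f, Sema4g, Sema6b, Sema6d, Sema7a, Plxna2, Plxna4, Plxnc1 and Nrp1, and the 3 were Sema3g, Sema5b and Plxnb1. The log2 fold changes of the 30 members had a Pearson correlation of 0.961 between the backgrounds, which share no library but share gene lengths, dissections and counting. A test of the difference itself, in 1 model of all 32 libraries, called no member (0.0305% of all 16399 genes), as did DESeq2 and limma-voom. By edgeR only Nrp2 had an unadjusted p under 0.05, beside 6.62% of genes (2.56% in its direction). Its age effect was 0.40 larger in C57BL/6 on the log2 scale (adjusted p = 0.639). The 8 members called in only 1 background are therefore not shown to differ between the backgrounds.

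Most of these age changes were also called in the labelled knockout and Tg(Kat6b) groups. Between E15.5 and E12.5, 23 of 31 members were called in the labelled knockout (20 higher and 3 lower, beside 56.4% of all genes, 29.4% higher and 27.0% lower) and 17 of 30 in Tg(Kat6b) (15 higher and 2 lower, beside 46.3%, 23.8% higher and 22.5% lower). In all 4 combinations of genotype and background, 12 members were called higher (19.3% of genes) and Sema3g and Sema5b lower (15.9%). The 12 are the 13 named above without Plxnc1. The libraries of the ages did not overlap for 22 members in the labelled knockout (54.1% of all genes) and 16 in Tg(Kat6b) (43.1%). Sema6b was 1.82 in the labelled knockout and 1.63 in Tg(Kat6b) on the log2 scale, and Nrp1 1.54 and 1.52. Plxna1 and Plxnd1 were called in the labelled knockout and in none of the other 3. Plxnb3 was called in the labelled knockout and not in C57BL/6 wild type, and was not tested in FVBxBALB/c. The test of the difference in age effect between labelled knockout and wild type called none of these genes (adjusted p = 1 each). The Plxnb3 call rests on 12, 6, 9, 6 and 16 counts at E15.5 against 3, 2 and 2 at E12.5 (log2 fold change 2.25, 95% interval 1.29 to 3.22). The Plxnb1 call in the labelled knockout ended without labelled knockout E12.5 replicate 4 (-0.26, adjusted p = 0.0569). The Sema5b call in Tg(Kat6b) ended without Tg(Kat6b) E12.5 replicate 1 (-0.40, adjusted p = 0.0601) or Tg(Kat6b) E15.5 replicate 4 (-0.43, adjusted p = 0.06). These comparisons set no wild-type library against another, but each shares its filter, scaling and estimate of the spread with the wild type of its background. In C57BL/6 the embryos also share litters with wild type, so the repeated calls are not independent.

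Markers of other tissue differed between the ages in the same libraries. Of 18 meningeal and mesenchymal genes, 13 were called lower at E15.5 in C57BL/6 wild type and 17 in FVBxBALB/c wild type, none higher. Their summed level was 221 to 357 CPM at E15.5 against 874 to 2373 CPM at E12.5 in C57BL/6, and 174 to 207 CPM against 814 to 3042 CPM in FVBxBALB/c. At E15.5 Aldh1a2 was at 0 in at least 1 library of each wild type, and Lum, Mgp and Slc6a13 in FVBxBALB/c. Genes of the diencephalon, midbrain and hindbrain summed to 47.2 to 312 CPM at E15.5 and 402 to 457 CPM at E12.5 in C57BL/6, with 5 of 12 tested called lower, and to 50.0 to 97.0 CPM at E15.5 and 204 to 913 CPM at E12.5 in FVBxBALB/c, with 10 of 10 called lower. The 10 dorsal telencephalon markers used here were detected in every library and summed to 2565 to 3254 CPM at E15.5 and 1944 to 2013 CPM at E12.5 in C57BL/6. They did not move together, since 5 were called higher and 4 lower at E15.5 in C57BL/6, and 5 higher and 3 lower in FVBxBALB/c. Without wild-type FVBxBALB/c E12.5 replicate 4, 18 of 30 members were called with age in that background. The part of these tissues in the age changes of the members was not tested.

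Promoter windows, 250 bases before to 50 after a RefSeq transcription start on GRCm38.p6, were available for 26 of the 31 members. Those of 2 members that rose with age and 2 that fell are printed, chosen for the largest changes among members with a window, to show the sequence at their starts, 5′ to 3′ on the strand of the gene. Capitals mark the GC box GGGCGG or its reverse complement CCGCCC. Sema6b is at chr17:56140294-56140593 (minus strand) and Sema3g at chr14:31217623-31217922 (plus strand). Nrp1 is at chr8:128358823-128359122 and Sema5b at chr16:35541112-35541411, both on the plus strand, and these starts lie 482 and 208 bases from the 5′ end of the gene model.
Sema6b: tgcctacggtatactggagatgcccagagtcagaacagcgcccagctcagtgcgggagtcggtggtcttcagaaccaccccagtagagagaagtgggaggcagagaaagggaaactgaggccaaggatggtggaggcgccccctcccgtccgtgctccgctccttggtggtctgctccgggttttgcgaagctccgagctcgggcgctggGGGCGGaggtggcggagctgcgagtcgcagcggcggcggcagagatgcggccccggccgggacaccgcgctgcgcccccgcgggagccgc
Nrp1: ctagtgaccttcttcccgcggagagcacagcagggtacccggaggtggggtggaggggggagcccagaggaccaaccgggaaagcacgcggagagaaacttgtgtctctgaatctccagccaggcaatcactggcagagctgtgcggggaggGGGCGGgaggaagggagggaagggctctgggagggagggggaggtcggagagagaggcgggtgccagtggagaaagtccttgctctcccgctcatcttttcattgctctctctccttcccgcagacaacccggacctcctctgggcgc
Sema3g: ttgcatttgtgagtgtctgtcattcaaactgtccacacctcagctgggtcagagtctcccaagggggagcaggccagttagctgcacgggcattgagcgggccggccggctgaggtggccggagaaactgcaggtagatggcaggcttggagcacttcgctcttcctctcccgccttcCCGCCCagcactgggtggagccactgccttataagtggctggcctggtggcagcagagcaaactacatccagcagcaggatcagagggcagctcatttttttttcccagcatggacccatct
Sema5b: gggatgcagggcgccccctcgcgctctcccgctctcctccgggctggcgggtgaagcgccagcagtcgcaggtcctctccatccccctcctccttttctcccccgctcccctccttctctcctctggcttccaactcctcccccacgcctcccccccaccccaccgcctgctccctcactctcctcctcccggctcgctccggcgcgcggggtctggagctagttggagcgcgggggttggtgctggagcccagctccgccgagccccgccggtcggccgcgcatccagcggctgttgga
The GC box is present once in each window of Sema6b, Nrp1 and Sema3g, and its letters are not in the Sema5b window. Over both strands, 27 of 37 member windows (73.0%) held it, against 35.7% of all 32851 windows. The E-box CANNTG was in 56.8% of member windows and 72.3% of all windows, and TATAAA in 0 of 37 member windows and 13.6% of all. Member windows held a median of 15 CpG dinucleotides and all windows 7. A GC box adds to GC content and CpG contexts, so these shares are not independent, and a match is a description of the letters only.

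In the comparison of labelled knockout with wild type at E15.5, no member passed an adjusted p of 0.05 with edgeR, and no gene of all 16118 did (0%). DESeq2 and limma-voom also called 0 members. The largest departure by p was Sema3b, a secreted ligand known for repelling axons, at 2.47, 2.07, 1.85, 2.42 and 2.18 CPM in the labelled knockout and 1.09, 1.49, 2.14, 1.68 and 0.931 CPM in wild type. These groups overlapped (log2 fold change 0.59, SE 0.23, unadjusted p = 0.0179, adjusted p = 1). Nrp2 had 211, 217, 235, 238 and 221 CPM in the labelled knockout and 209, 197, 201, 182 and 192 CPM in wild type. The Nrp2 groups did not overlap, the knockout being higher, but the difference was small and failed the correction (log2 fold change 0.19, SE 0.08, unadjusted p = 0.0307, adjusted p = 1). These are the only members with an unadjusted p under 0.05 (2.83% of all genes, 1.64% higher), and Nrp2 is the only one with groups apart (0.819%). Without labelled knockout replicates 3 and 4 the Nrp2 log2 fold change was 0.14, at an unadjusted p of 0.178 and an edgeR adjusted p of 1.

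Further down the order of p at E15.5 stood Plxnb3, with 12, 6, 9, 6 and 16 counts in the labelled knockout and 2, 11, 8, 4 and 9 in wild type, and Plxnc1. Plxnc1 had 129.5, 114, 166, 161 and 125 CPM in the labelled knockout and 132, 142, 118, 121 and 112 CPM in wild type (log2 fold change 0.15, SE 0.11, unadjusted p = 0.193, adjusted p = 1). Its sign turned, to a log2 fold change of -0.03, without labelled knockout replicates 3 and 4, and the groups overlapped. For the remaining members the 95% intervals of the log2 fold change all included 0. Tissue markers moved in the same libraries. The meningeal markers summed to 244, 188, 504, 495 and 229 CPM in labelled knockout replicates 1 to 5 and to 221 to 357 CPM in wild type, and the dorsal telencephalon markers to 2985, 2941, 2187, 2110.4 and 3037 CPM in the labelled knockout and to 2565 to 3254 CPM in wild type. Replicates 3 and 4 were thus the high ones for meninges and the low ones for dorsal telencephalon. With all libraries, 18 of 18 meningeal markers lay above 0 and 10 of 10 dorsal markers below, 3 dorsal ones at an unadjusted p under 0.05. Without these replicates, 0 of 18 meningeal markers lay above 0 and 5 of 10 dorsal markers below. Diencephalon, midbrain and hindbrain genes summed to 53.6, 59.2, 351, 341 and 57.4 CPM in labelled knockout replicates 1 to 5 and to 47.2 to 312 CPM in wild type. Of 12 tested, 9 lay above 0 with all libraries, and 0 without these replicates, 3 then lower at an unadjusted p under 0.05. Of 16 endothelial and pericyte markers 13 lay above 0 with all libraries, and 0 without these replicates. All 14 Cajal-Retzius and hem markers lay above 0 with all libraries, 3 of them at an unadjusted p under 0.05, and 8 without these replicates. Their sums were 607 to 1068 CPM in the labelled knockout and 536 to 1055 CPM in wild type. Of 15 ventral telencephalon and interneuron markers 13 lay below 0, and 12 without these replicates, with sums of 869 to 1131 CPM in the labelled knockout and 989 to 1178 CPM in wild type. Outside the diencephalon, midbrain and hindbrain list, the markers at 0 in a library were Mgp in the labelled knockout and Aldh1a2 in wild type. EdgeR called 0 members and 0 markers of all these lists, with or without these replicates. Their part in the values of the members was not tested.

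**Figure D4:**
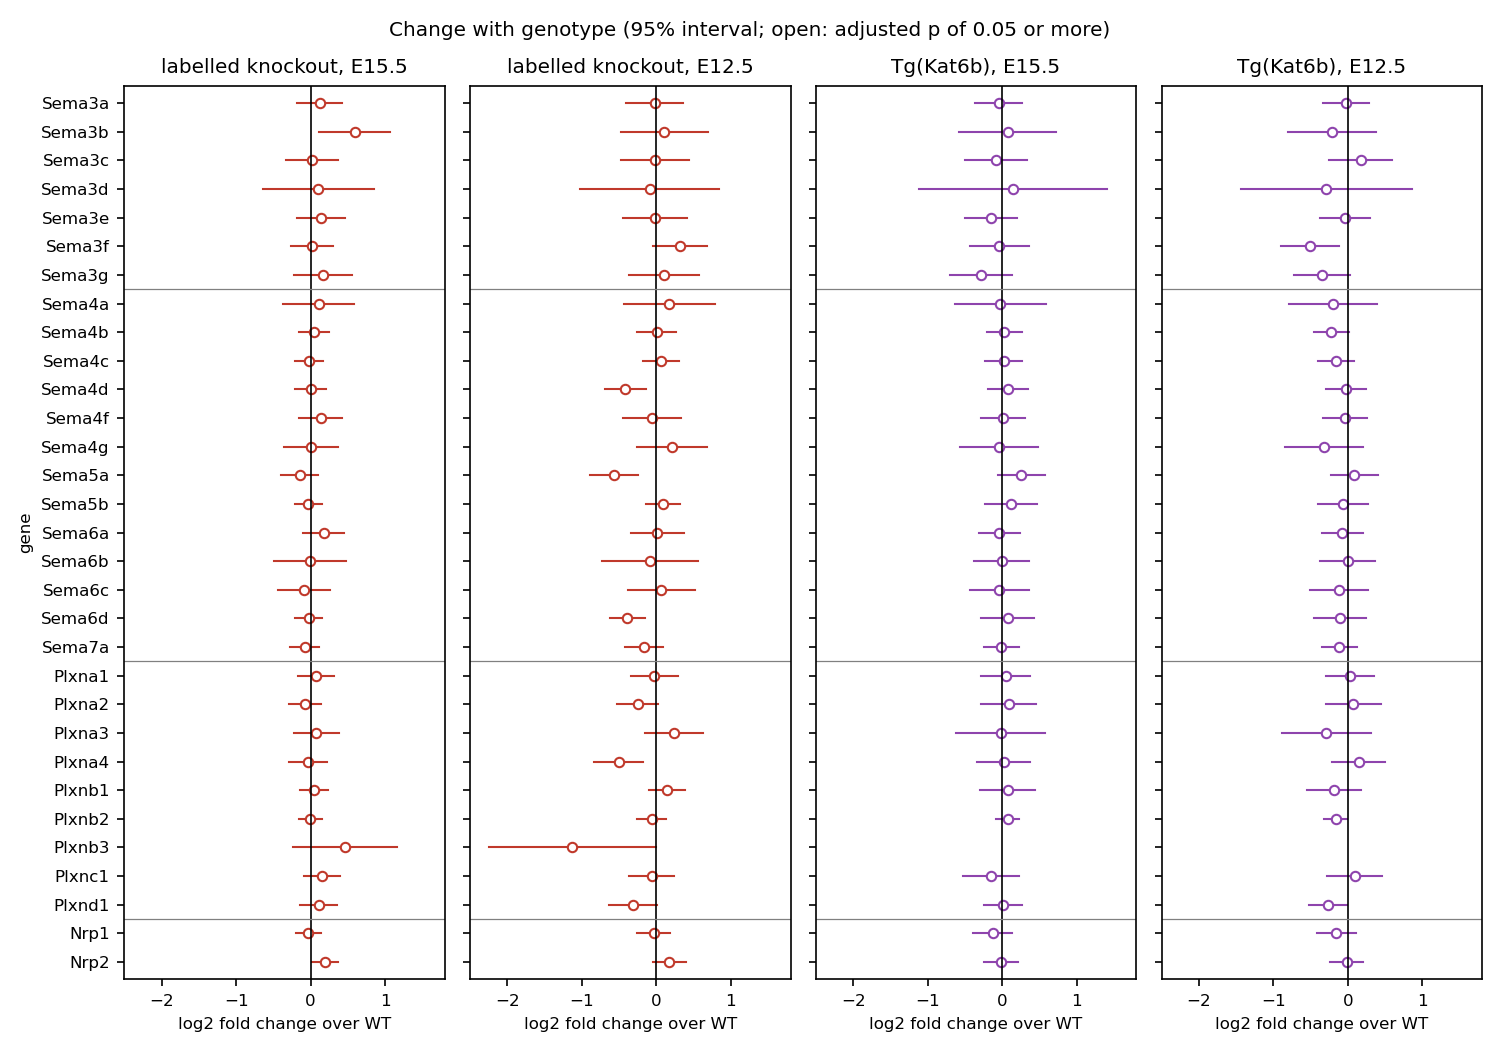
log2 fold change of labelled knockout over wild type in C57BL/6 and of Tg(Kat6b) over wild type in FVBxBALB/c, at E15.5 and E12.5, for each member with 95% intervals. By edgeR no member passed an adjusted p of 0.05 in any of the 4 comparisons, and Sema5a, Sema6d, Plxna4 and Sema4d lie below 0 (-0.57, -0.39, -0.51 and -0.42) in the labelled knockout at E12.5.

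At E12.5 again no member passed in the labelled knockout (0.00620% of genes, 1 of 16118), and DESeq2 and limma-voom called 0 members. An unadjusted p under 0.05 was reached by 4 members, all lower in the labelled knockout, where 5.22% of all genes reached it in either direction and 3.65% lower. Sema5a, which has both attractive and repulsive roles in axon guidance, had 107, 114 and 90.1 CPM in the labelled knockout and 197, 136 and 127 CPM in wild type (log2 fold change -0.57, SE 0.15, unadjusted p = 0.00166, adjusted p = 0.881). Without wild-type replicate 1, the highest library, the log2 fold change was -0.34, and by limma-voom -0.29. Sema6d, a membrane-bound ligand of class A plexins, had 50.0, 54.4 and 57.3 CPM in the labelled knockout and 58.6, 81.5 and 71.8 CPM in wild type (log2 fold change -0.39, SE 0.11, unadjusted p = 0.00241, adjusted p = 0.881). Its log2 fold change was -0.26 without wild-type replicate 3. In both genes the highest knockout library was below the lowest wild-type library.

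Plxna4 had 52.2, 61.3 and 66.9 CPM in the labelled knockout and 70.0, 99.9 and 86.5 CPM in wild type at E12.5 (log2 fold change -0.51, SE 0.16, unadjusted p = 0.00477, adjusted p = 0.881). Its log2 fold change was -0.37 without wild-type replicate 3. Sema4d, the Plxnb1 ligand, had 20.5, 15.7 and 17.6 CPM in the labelled knockout and 21.7, 25.3 and 24.9 CPM in wild type (log2 fold change -0.42, SE 0.13, unadjusted p = 0.00524, adjusted p = 0.881). Without labelled knockout replicate 3 the Sema4d log2 fold change was -0.33. For Plxna4 and Sema4d too the groups were apart, as they were for 5 members in all, beside 7.31% of all genes. The fifth was Plxnb3, at 3, 2 and 2 counts in the labelled knockout and 5, 7 and 5 in wild type (log2 fold change -1.13, 95% interval -2.25 to -0.01, unadjusted p = 0.066). With 3 libraries per group, none of these 5 differences survived the adjustment over all genes, and the intervals of the other 26 members included 0.

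All 10 dorsal telencephalon markers had negative log2 fold changes in the labelled knockout at E12.5, of which 6 had an unadjusted p under 0.05 and 0 were called. Their summed level was 1345 to 1768 CPM in the labelled knockout and 1944 to 2013 CPM in wild type, which do not overlap, and none was at 0 in any library. Of the 18 meningeal markers 15 lay above 0, with sums of 706 to 3270.4 CPM in the labelled knockout and 874 to 2373 CPM in wild type, and these ranges overlap. Of 15 ventral telencephalon and interneuron markers 14 lay above 0, with overlapping sums of 741 to 1332 CPM in the labelled knockout and 408 to 1173 CPM in wild type. Diencephalon, midbrain and hindbrain genes lay below 0 in 9 of 12 tested, with overlapping sums of 149 to 534 CPM and 402 to 457 CPM in the same order. The 1 gene of this list with an unadjusted p under 0.05 was higher in the labelled knockout. Of 16 endothelial and pericyte markers 12 lay below 0, of 14 Cajal-Retzius and hem markers 10 lay above 0, and of 11 microglia and blood markers 6 lay below 0. EdgeR called 0 markers of these lists. The part of these markers in the 4 lower members was not tested.

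**Figure D5:**
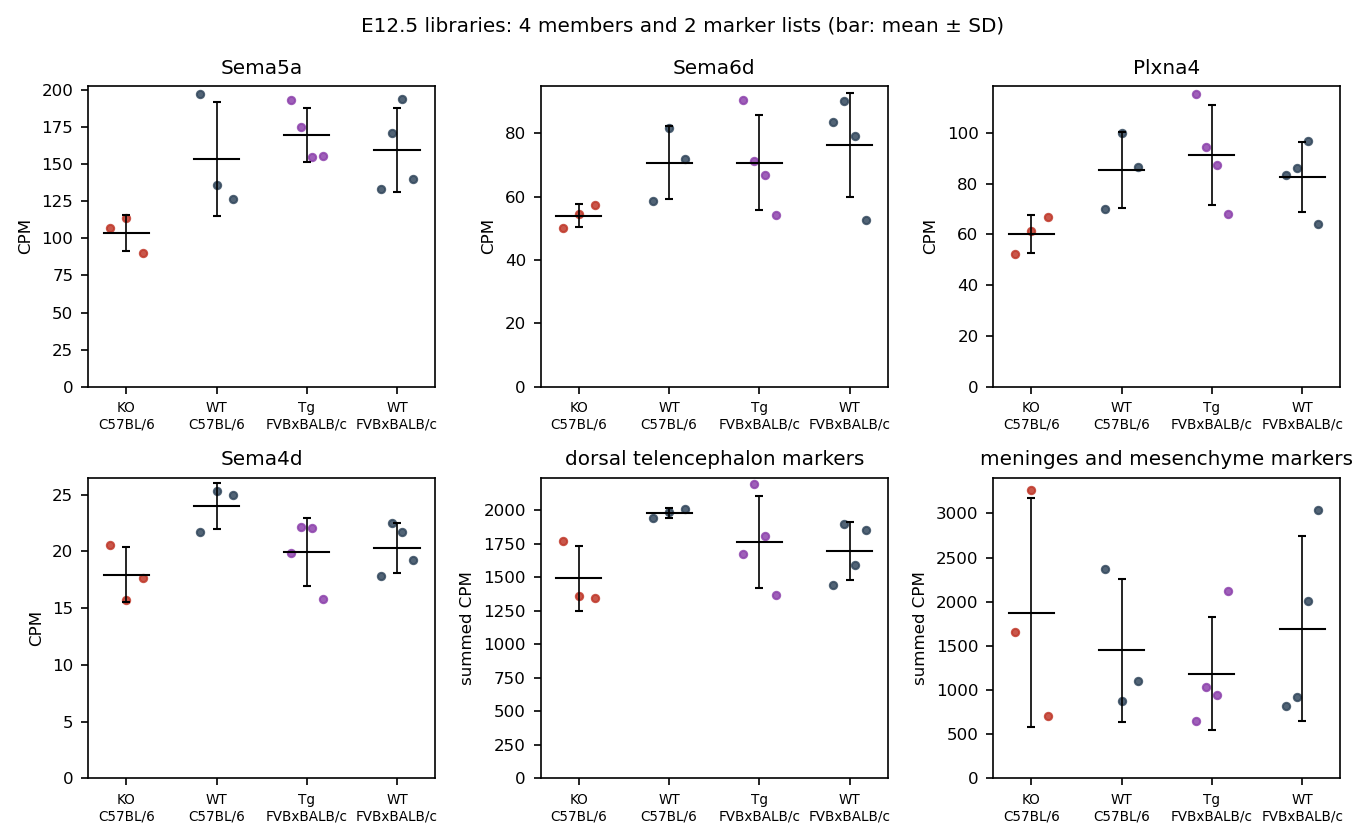
CPM per library at E12.5 for Sema5a, Sema6d, Plxna4 and Sema4d, beside the summed CPM of the 10 dorsal telencephalon markers and the 18 meningeal and mesenchymal markers, by group. The 3 labelled knockout libraries lie below the 3 wild-type libraries for each of the 4 members and for the dorsal telencephalon sum (1345 to 1768 against 1944 to 2013 CPM).

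In Tg(Kat6b) at E15.5 no member passed (0.0129% of all genes), and none had an unadjusted p under 0.05 (2.22% of all genes). DESeq2 and limma-voom called 0 members. The smallest p belonged to Sema5a, at 139, 138, 144 and 173 CPM in Tg(Kat6b) and 156, 139, 95.1 and 108 CPM in wild type. The groups overlapped (log2 fold change 0.26, SE 0.15, unadjusted p = 0.107, adjusted p = 1). Sema3g had 2.38, 2.48, 2.73 and 1.75 CPM in Tg(Kat6b) and 2.73, 3.45, 2.93 and 2.24 CPM in wild type (log2 fold change -0.29). Plxnb2, a receptor of membrane-bound class 4 semaphorins, had 315, 299, 312 and 286 CPM in Tg(Kat6b) and 285, 291, 290.1 and 284 CPM in wild type (0.07). Nrp1 had 178, 154, 187 and 231 CPM in Tg(Kat6b) and 247, 189.5, 196 and 185 CPM in wild type (-0.12, and -0.24 without Tg(Kat6b) replicate 4). In these 3 genes as well the groups overlapped. Of the 30 members tested, 15 lay above 0 and 15 below. Dorsal telencephalon markers, 10 of 10 above 0, summed to 3722, 3235, 3290 and 4624 CPM in Tg(Kat6b) and 3023 to 3938 CPM in wild type. Ventral telencephalon and interneuron markers, 8 of 15 above 0, summed to 1224, 1504, 1194 and 575 CPM, against 898 to 1329 CPM. All 11 microglia and blood markers lay below 0, 1 at an unadjusted p under 0.05. EdgeR called 0 markers of these lists, and their part in the values of the members was not tested.

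At E12.5 no member passed in Tg(Kat6b) with edgeR (0.0129% of genes) or DESeq2, whereas limma-voom with sample quality weights called 3, all lower, beside 5.35% of all genes (832 of 15556, 2.59% lower). They were Sema4g (-0.70 by limma-voom, adjusted p = 0.0336, and -0.31 by edgeR, adjusted p = 0.833), Plxna3 (-0.77, adjusted p = 0.0338, and -0.29 by edgeR, adjusted p = 0.875) and Plxnb1 (-0.40, adjusted p = 0.0477, and -0.19 by edgeR, adjusted p = 0.864). By edgeR, negative log2 fold changes were found for 24 of 30 members (median -0.11 against -0.01 over all genes), and for 25 without wild-type replicate 4, and none had groups apart (2.82% of all genes). Sema3f, the Nrp2 ligand, had 26.0, 12.2, 16.9 and 24.6 CPM in Tg(Kat6b) and 33.8, 22.8, 28.1 and 28.5 CPM in wild type (log2 fold change -0.50, SE 0.18, unadjusted p = 0.0139, adjusted p = 0.724), and the log2 fold change was -0.34 without Tg(Kat6b) replicate 2. Plxnd1, the Sema3e receptor that also works in endothelium, had 68.5, 75.8, 82.9 and 67.0 CPM in Tg(Kat6b) and 68.3, 80.6, 89.9 and 115 CPM in wild type (log2 fold change -0.27, SE 0.12, unadjusted p = 0.0377, adjusted p = 0.743). Without wild-type replicate 4, the highest library, the log2 fold change was -0.12, and by limma-voom -0.09. In each of these genes, at least 1 transgenic library lay within the wild-type range. Plxnb2 had 324, 277, 324 and 290.4 CPM in Tg(Kat6b) and 318, 321, 378 and 343 CPM in wild type (log2 fold change -0.16, SE 0.07, unadjusted p = 0.041, adjusted p = 0.743), and without wild-type replicate 3 the log2 fold change was -0.11. These 3 are the members with an unadjusted p under 0.05, all lower, which 6.68% of all genes had in either direction and 3.05% lower. Without wild-type replicate 4 there were 5. Sema4b followed with 27.0, 21.4, 25.6 and 21.4 CPM in Tg(Kat6b) and 28.8, 27.2, 30.9 and 24.5 CPM in wild type (log2 fold change -0.22, unadjusted p = 0.0602).

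Markers of vessels, meninges and other tissue were followed in the same transgenic libraries. Of 16 endothelial and pericyte genes 15 lay below 0 at E12.5, 5 at an unadjusted p under 0.05 and 0 called, with sums of 310.1 to 358 CPM in Tg(Kat6b) and 343 to 483 CPM in wild type. The meningeal list summed to 645 to 2116 CPM in Tg(Kat6b) and 814 to 3042 CPM in wild type, 15 of 18 genes below 0 and 3 at an unadjusted p under 0.05. Without wild-type replicate 4, 13 of 16 endothelial and pericyte genes and 8 of 18 meningeal genes lay below 0. Of 15 ventral telencephalon and interneuron markers 13 lay above 0, and 10 without that replicate. Diencephalon, midbrain and hindbrain genes lay below 0 in 9 of 10 tested, and in 10 without that replicate, 5 then at an unadjusted p under 0.05. For microglia and blood 9 of 11 lay below 0, 2 at an unadjusted p under 0.05, and 7 without that replicate. No endothelial, pericyte or meningeal gene was at 0 in these libraries. EdgeR called 0 genes of these lists, the sums overlapped between the groups for each list, and their part in the values of the members was not tested.

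Whether a genotype effect differed between the ages was tested as an interaction, and no member and no gene passed in either background (0% of genes each). In C57BL/6, 6 members had an unadjusted p under 0.05, beside 2.72% of all genes (2.09% in this direction), each with a higher log2 fold change of labelled knockout over wild type at E15.5 than at E12.5. They were Sema6d (difference 0.36), Sema4d (0.42), Plxnb3 (1.59), Plxna4 (0.47), Plxnd1 (0.43) and Sema5a (0.42), all at an edgeR adjusted p of 1. Without labelled knockout E15.5 replicates 3 and 4 there were 5, and 18 of 31 members lay above 0, against 23 with all libraries. In the same test 10 of 10 dorsal telencephalon markers lay above 0 and 15 of 15 ventral telencephalon and interneuron markers below, 1 of each at an unadjusted p under 0.05. Without these replicates the counts were again 10 and 15, with 2 dorsal and 0 ventral markers at an unadjusted p under 0.05. Other lists moved. Markers above 0 went from 12 to 1 of 18 for meninges and from 9 to 2 of 12 for diencephalon, midbrain and hindbrain. They went from 12 to 8 of 16 for endothelium and pericytes and from 12 to 7 of 14 for Cajal-Retzius neurons and hem. The part of these markers in the differences of the members was not tested. In FVBxBALB/c, Plxnb2 alone had an unadjusted p under 0.05 (0.24, adjusted p = 1), beside 4.04% of genes (2.01% in this direction). These differences rest on the same E12.5 libraries as the E12.5 comparisons. DESeq2 and limma-voom called 0 members in either interaction.

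The partners and effectors of the family were followed as a list of 38 genes for co-receptors, cytoplasmic mediators and cytoskeletal targets. In C57BL/6 wild type 22 were called higher and 9 lower at E15.5 (median log2 fold change 0.36), beside 28.6% and 28.2% of all genes. In FVBxBALB/c 19 were higher and 6 lower (median 0.23), beside 25.1% and 25.1% of all genes. Cntn2, an adhesion protein of growing axons, had 855 ± 141 CPM at E15.5 and 179 ± 16.3 CPM at E12.5 in C57BL/6 (SD, n = 5 and 3), a log2 fold change of 2.25 (adjusted p = 1.47e-08), and rose by 2.07 in FVBxBALB/c. Met, a receptor tyrosine kinase that couples to class B plexins, had 7.76 ± 1.52 CPM at E15.5 and 1.64 ± 0.0434 CPM at E12.5 in C57BL/6 (2.24, adjusted p = 3.57e-08), and rose by 1.53 in FVBxBALB/c. Dpysl5 and Crmp1, of the collapsin response mediators that act behind Sema3a, rose by 1.34 and 1.33 in C57BL/6 and by 1.06 and 1.12 in FVBxBALB/c. Rnd1, a small GTPase that binds plexins, rose by 1.25 in C57BL/6 and 1.16 in FVBxBALB/c. Fyn, a kinase in the Sema3a response, rose by 0.64 in C57BL/6 and 0.72 in FVBxBALB/c. Kdr, the vascular growth factor receptor that is also in the endothelial list, fell in C57BL/6 (-0.63, adjusted p = 0.0136) and in FVBxBALB/c (-1.02, adjusted p = 3.52e-07).

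No partner or effector passed in any genotype comparison. At E12.5 the labelled knockout had 1.04 ± 0.0116 CPM of Met and wild type 1.64 ± 0.0434 CPM (SD, n = 3 each), a log2 fold change of -0.66 at an unadjusted p of 0.00383 and an adjusted p of 0.881. Itga1, an integrin subunit known as a Sema7a receptor, was at -0.41 and Rasa1, a Ras regulator, at -0.20. These were the 3 of 38 with an unadjusted p under 0.05, a share near the 5.22% of all genes. In Tg(Kat6b) at E12.5 there were also 3, Mical2 (-0.51), an oxidoreductase acting on actin, the kinase Fes (-0.49) and Kdr (-0.21), all lower, beside 6.68% of all genes. At E15.5 the count was 1 in the labelled knockout (Nrcam, 0.19, beside 2.83% of all genes) and 0 in Tg(Kat6b) (2.22%).

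Several members lie near each other on the mm10 genome, which shares its coordinates with GRCm38. On chromosome 5, Sema3d and Sema3a are 536 kb apart and Sema3a and Sema3e 422 kb, with Sema3c 3.32 Mb further. Of these neighbours Sema3a (chr5:13124822-13603485), Sema3e (chr5:14025276-14256689) and Sema3c (chr5:17574816-17730268) rose with age in both backgrounds, and Sema3d (chr5:12383161-12588953) passed in neither. On chromosome 9, Sema3b and Sema3f are 72.3 kb apart. Sema3f was called with age in C57BL/6 wild type and in Tg(Kat6b), and Sema3b in no group. Plxnb1, called lower in both wild types, lies 1.38 Mb beyond Sema3f. On chromosome X, Plxnb3 and Plxna3 are 556 kb apart. Plxna3 was called higher in C57BL/6 wild type and the labelled knockout, and Plxnb3 only in the labelled knockout. Exons of some members overlap a gene on the opposite strand, 10.7% of the exon bases of Plxna1 (Gm26811), 7.27% of Sema4c (D430040D24Rik), 2.68% of Plxnb1 (Gm7628) and 0.78% of Plxna4 (Plxna4os3). Whether counting used strand is not given in the sources used here, so reads of these partners cannot be told apart over that part.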

How the data were processed

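Per the labels, total RNA was extracted on RNeasy columns and TruSeq RNA v2 libraries were read from both ends on a NextSeq500. The authors deposited unnormalized counts of reads for each gene. The submitters' processing notes name bcl2fastq, featureCounts and mm10, and neither aligner nor annotation is given in the sources used here. Of 27179 rows per file, 848 named no gene (0.305 to 2.00% of counts) and were left out.

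For each background, genes were kept by filterByExpr (minimum count 10, minimum total 15), scaled by TMM and tested with edgeR 4.0.16 (R 4.3.3), with 1 robust quasi-likelihood model over its 4 groups (12 residual degrees of freedom, biological coefficient of variation 0.162 in C57BL/6 and 0.188 in FVBxBALB/c). The 2-sided p-values were Benjamini-Hochberg adjusted over all genes. The SE is the log2 fold change over the square root of F; intervals are 95% and, like the 3-count floor, treat reads as molecules. E15.5 against E12.5 in the labelled knockout and in Tg(Kat6b) was added after the data were seen. Members and lists were chosen with earlier results of these data known, and 2 genes of the dorsal telencephalon list were left out of it and are not reported here. Named members were the 4 with the smallest p per genotype comparison and, for age, up to 6 per direction called in both wild types with the largest mean change (6 higher, 3 lower).

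Same-numbered C57BL/6 knockout and wild-type libraries of an age share a litter, per the labels (E12.5 replicates 3 and 4 share 1 litter), and their deviations correlated at -0.361 to 0.392 at E12.5 and -0.112 to 0.389 at E15.5. FVBxBALB/c litters are not given, and p-values there measure the spread between libraries. In simulated data with these means, the same test recovered 45% of 1.5-fold and 81% of 2-fold changes for labelled knockout against wild type at E12.5, and 70% and 94% at E15.5. It recovered 47% and 83% for Tg(Kat6b) at E12.5, and 43% and 79% at E15.5. Only genes above a low mean level were changed, and 127 to 173 genes passed in these simulated comparisons, against 0 to 2 in the data. The adjustment is easier to pass with more changed genes, so the shares may overstate what could be detected here, above all for Plxnb3. DESeq2 1.42.0, limma 3.58.1 (voom with quality weights), no filter, all 32 libraries in 1 model, blocks and left-out libraries were alternatives.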

Additional observations from a re-analysis of the deposited data

Results flagged for a closer look

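In 132 groups of 4 or 5 libraries of the 22 named members, 5 held a library far from the others, where chance flags about 1 in 20. Wild-type FVBxBALB/c E12.5 replicate 4 was low for Sema3b, at 1.57 CPM against 2.45 to 2.54 CPM in the other 3, and for Sema5b, at 62.0 CPM against 103 to 109.6 CPM. Wild-type FVBxBALB/c E15.5 replicate 1 was high for Sema3c, at 113 CPM against 81.6 to 86.4 CPM. Tg(Kat6b) E12.5 replicate 1 was high for Sema4f, at 11.5 CPM against 7.26 to 7.71 CPM. Wild-type C57BL/6 E15.5 replicate 3 was low for Sema5a, at 88.3 CPM against 117 to 124 CPM in the other 4.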

How the results depend on the processing

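Counts of called members stayed within 1.5 times those given under every alternative run except 1. For Tg(Kat6b) against wild type at E12.5, limma-voom with sample quality weights called 3 members, not 0, and 832 of all 15556 genes, not 2; the cause was not tested. The log2 fold change of Plxnc1 in the labelled knockout at E15.5 was 0.15 and became -0.0323 without replicates 3 and 4. For E15.5 against E12.5, DESeq2 called 23 members in C57BL/6 wild type, 19 in FVBxBALB/c wild type, 23 in the labelled knockout and 17 in Tg(Kat6b), and limma-voom called 23, 19, 26 and 23 in the same order. With no filter the counts were 22, 17, 22 and 16, and with all 32 libraries in 1 model 22, 18, 21 and 19. Without both C57BL/6 E15.5 replicates 5 they were 20 in wild type and 22 in the labelled knockout, and without labelled knockout replicates 3 and 4 the knockout count was 22. Leaving out 1 library at a time gave 20 to 23 in C57BL/6 wild type, 16 to 18 in FVBxBALB/c wild type, 20 to 24 in the labelled knockout and 15 to 18 in Tg(Kat6b), and 0 in every genotype comparison and interaction.

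With the replicate number as a block, 20 members were called with age in C57BL/6 wild type, 16 in FVBxBALB/c wild type, 22 in the labelled knockout and 20 in Tg(Kat6b), and 0 between genotypes. The block ended the wild-type calls on Sema4b (adjusted p = 0.435), Sema6c (0.164) and Plxnb1 (0.152) in C57BL/6 and on Plxnb2 (0.082) in FVBxBALB/c, and that on Sema3g in the labelled knockout (0.0758). Numbers do not pair embryos between ages. With the litter as a block, 0 members were called between labelled knockout and wild type. For the log2 fold changes of the members named by rule in each comparison, over all alternatives apart from leaving out 1 library, 470 kept direction and call, 12 lost the call, 2 gained it and 1 changed sign. The depth of Plxnb3 (0 to 16 counts) and of Sema3b (9 to 111) limits what could be detected for them.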
